A study of Mus musculus with 31 samples.

Results

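The comparison set the 6 ENU-induced thymic tumors with the most collagen RNA against the 6 with the least. All 19 tumor arrays were ranked by a collagen score, the mean log2(intensity + 1) of Col1a2 and Col3a1, so that 12 of 19 tumors entered a group, 7 lay between the groups, and the series held 31 arrays with the 12 untreated thymi. The tumors came from C57BL/6 mice given N-ethyl-N-nitrosourea (ENU, an alkylating mutagen) at 100 mg/kg and were taken when a tumor had developed or at 9 months after the treatment. The mice were labelled NDR1-/- (KO), NDR1+/- (HT) or NDR1+/+ (WT), and NDR1 is the kinase encoded by Stk38. The 6 high-collagen tumors were 2 KO and 4 WT tumors from females. The 6 low-collagen tumors were 2 KO and 4 HT tumors, of which 1 HT tumor was labelled male. The 12 thymi came from untreated mice of the same strain, 2 females and 2 males of each genotype. The titles call the tumor samples tumor cells while the source label names thymus. The titles of the 12 thymus arrays read thymocytes. How far each sample held other cells of the thymus is not known from these labels, so thymi and tumors may differ in their mix of cells. The nature of the NDR1 allele and the ages of the mice are not given in the sources used here. Whether the arrays are of separate animals is not labelled, so p-values measure only the spread between these arrays. In RNA pooled over the cells of a sample, fewer cells of a type and less RNA per cell cannot be told apart.

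Type I and type III collagen are the main fibres of connective tissue. Each chain is made in the endoplasmic reticulum, where hydroxylases and the chaperone HSP47 help it to fold, and is trimmed outside the cell before fibres form. Fibroblasts, pericytes and smooth muscle cells are the usual sources, and in the thymus such cells ensheath vessels and lobules, while thymocytes make up most of the organ's cells. Col1a2 encodes the alpha 2 chain of type I collagen and Col3a1 the chain of type III collagen. The 250 bases before the start of each of these genes are shown because their levels chose the groups, and those of Cxcl13 because it had the smallest p of the comparison. They are RefSeq sequences on GRCm38.p6, on the plus strand, at chr6:4505368-4505617 for Col1a2, chr1:45311288-45311537 for Col3a1 and chr5:95956689-95956938 for Cxcl13. Capitals mark CCAAT (searched on both strands, so as CCAAT or ATTGG) and TATAAA (searched on the strand of the gene), and these motifs do not overlap here.
Col1a2: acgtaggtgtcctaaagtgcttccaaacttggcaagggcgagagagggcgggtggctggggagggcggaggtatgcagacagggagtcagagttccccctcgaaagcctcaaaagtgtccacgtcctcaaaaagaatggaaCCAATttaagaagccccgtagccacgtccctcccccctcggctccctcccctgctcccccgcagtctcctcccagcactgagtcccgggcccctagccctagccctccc
Col3a1: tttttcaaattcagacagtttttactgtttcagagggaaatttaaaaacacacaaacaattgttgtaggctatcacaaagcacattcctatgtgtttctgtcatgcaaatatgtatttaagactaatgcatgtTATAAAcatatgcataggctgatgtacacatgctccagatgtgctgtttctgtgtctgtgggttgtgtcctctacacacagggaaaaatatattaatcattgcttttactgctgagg
Cxcl13: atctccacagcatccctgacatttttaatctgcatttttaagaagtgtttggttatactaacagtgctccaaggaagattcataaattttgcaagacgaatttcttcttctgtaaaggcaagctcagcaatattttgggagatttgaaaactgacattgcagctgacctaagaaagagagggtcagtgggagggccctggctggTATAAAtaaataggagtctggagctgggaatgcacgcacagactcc
Col1a2 held 1 CCAAT, starting 109 bases before the start, and no TATAAA. Col3a1 held 1 TATAAA, 117 bases before its start, and Cxcl13 held 1 TATAAA, 46 bases before its start, and neither held CCAAT. Of 32851 RefSeq mouse promoters of the same length, 33.85% held CCAAT and 7.59% held TATAAA. The shared letters are a description of these windows.

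The score placed KO tumor 03 first at 11.00, followed by WT tumor 03 at 10.74, KO tumor 07 at 10.45, WT tumor 05 at 10.20, WT tumor 01 at 10.03 and WT tumor 02 at 9.74. In the lowest 6 the score was 6.56 in KO tumor 01, 6.49 in KO tumor 05, 6.37 in HT tumor 04, 6.05 in HT tumor 03, 6.01 in HT tumor 06 and 5.02 in HT tumor 01. The groups were chosen by these values of Col1a2 and Col3a1, so their difference between the high and low groups carries no test. Just outside the high group lay HT tumor 02 and HT tumor 07, both at 9.36, and just outside the low group lay KO tumor 06 at 6.86. All thymi but 1 lay below every tumor, at 3.75 to 4.90, and HT thymus F_01 reached 6.12.

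The collagen genes did not move as a pair among the high tumors. Col1a2 was 12.54 in KO tumor 07 and 12.25 in WT tumor 01, its highest values in the 19 tumors, whereas Col3a1 was 8.36 and 7.82 in these tumors. The Col3a1 value of WT tumor 01 lay below the highest value of the low group, 7.93 in HT tumor 04. WT tumor 03, WT tumor 05 and WT tumor 02 had the opposite balance, with Col3a1 at 11.97, 11.39 and 10.98 and Col1a2 at 9.52, 9.02 and 8.5. KO tumor 03 was high for both, with 10.82 for Col1a2 and 11.18 for Col3a1. In the low group Col1a2 was 4.18 to 7.0 and Col3a1 5.87 to 7.93. A further Col1a2 probe set also had its 2 highest values in these tumors, with 11.79 in WT tumor 01 and 11.47 in KO tumor 07. Ranked on Col1a2 alone, 4 of the 6 high and 5 of the 6 low tumors stayed in their groups, and ranked on Col3a1 alone 4 and 4 did, with WT tumor 01 moving to the low group.

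**Figure D1:**
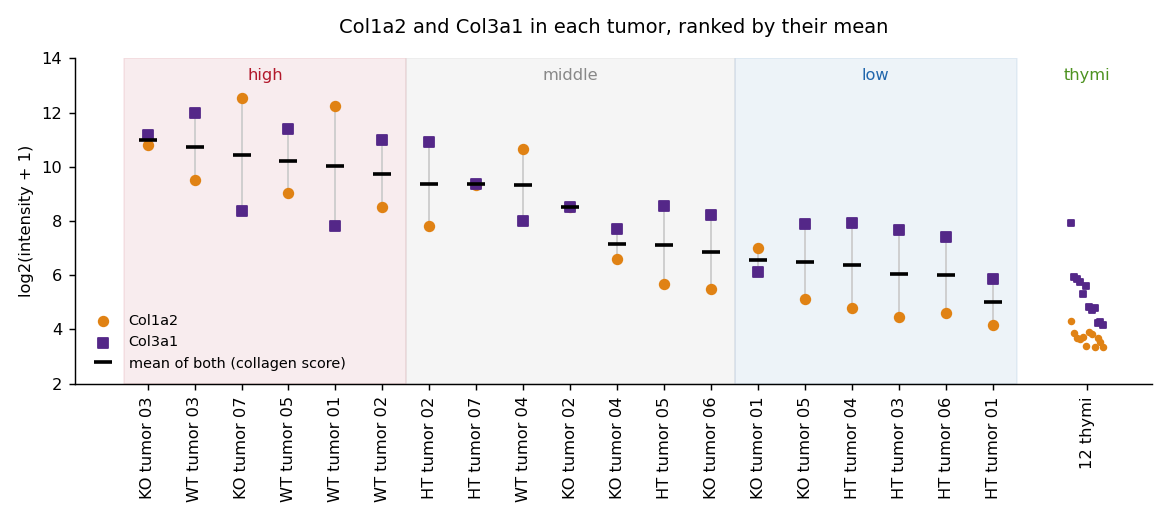
Level of Col1a2 (circles) and Col3a1 (squares) as log2(intensity + 1) in each of 19 tumors in the order of the collagen score (black bars, the mean of both), with the 12 thymi at the right. KO tumor 07 and WT tumor 01 reached 12.54 and 12.25 for Col1a2 with Col3a1 at 8.36 and 7.82, and the WT tumors 03, 05 and 02 showed the opposite balance.

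Stk38, the targeted gene, was 8.73 to 13.08 in the tumors labelled KO (n = 7), 10.71 to 12.77 in HT tumors (n = 7) and 11.38 to 13.04 in WT tumors (n = 5) on its main probe set, and KO tumors 03, 04, 06 and 07 lay at or above the lowest WT tumor, at 12.84, 12.77, 13.08 and 11.47. In the thymi it was 10.64 to 11.34 in KO, 11.33 to 11.58 in HT and 11.69 to 12.03 in WT. No source used here places these probes relative to the changed part of the gene, so genotypes are used as labelled. The score of all 19 tumors was then compared between these labels, which the ranking did not use, without the high and low groups. The rule behind the score was chosen with earlier results of these data known. The p-values therefore describe these arrays and give no independent support. KO tumors averaged 8.15 ± 1.89 (SD, n = 7) and WT tumors 10.01 ± 0.53 (n = 5), a difference of -1.86 (2-sided exact permutation p = 0.0657, 0.0985 after adjustment over 3 pairs). HT tumors averaged 7.04 ± 1.70 (n = 7), which was 2.97 below WT tumors (difference -2.97, exact p = 0.0076, adjusted p = 0.0227). KO and HT tumors differed by 1.11 (exact p = 0.2675, adjusted p = 0.2675). WT tumors ranged from 9.33 to 10.74, above 5 of 7 KO tumors and 5 of 7 HT tumors, the exceptions being KO tumors 03 and 07 and HT tumors 02 and 07 at 11.00, 10.45, 9.36 and 9.36. The call for HT against WT was lost when WT tumor 01, 02, 03 or 05 was left out, each time with an adjusted p of 0.05455. Without KO tumor 03, KO tumors were 2.34 below WT tumors (difference -2.34, exact p = 0.02165, adjusted p = 0.03247). Since WT tumors entered only the high group and HT tumors only the low group, collagen level and these genotypes cannot be told apart in the comparison below, except among the KO tumors.

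RNA quality and the sexes were read before the genes. The control probe sets of actin and Gapdh at the 3' and 5' ends give a log2 3'/5' ratio, which is larger where RNA is shorter. It averaged 1.47 in the high group and 0.54 in the low group (difference 0.93, exact permutation p = 0.039, 0.0779 after adjustment over this ratio and the B cell list). It was 1.91 in KO tumor 03, 0.25 in WT tumor 03, 3.17 in KO tumor 07, 0.98 in WT tumor 05, 0.97 in WT tumor 01 and 1.52 in WT tumor 02. In the low group it ran from 0.18 to 0.82, so that WT tumor 03 alone lay within the low range. The thymi had 0.26 to 0.50. HT tumor 04, labelled male, had 4.26 for Eif2s3y, a gene of the Y chromosome, and 4.12 for Xist, the RNA of the inactive X. The other male tumor, KO tumor 02, had 11.15 for Eif2s3y and 7.75 for Xist, and the 6 male thymi had 11.30 to 11.69 for Eif2s3y. The library labelled HT tumor 04 thus matched neither pattern, and without it 1 gene passed in the comparison below in place of 2.

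**Figure D2:**
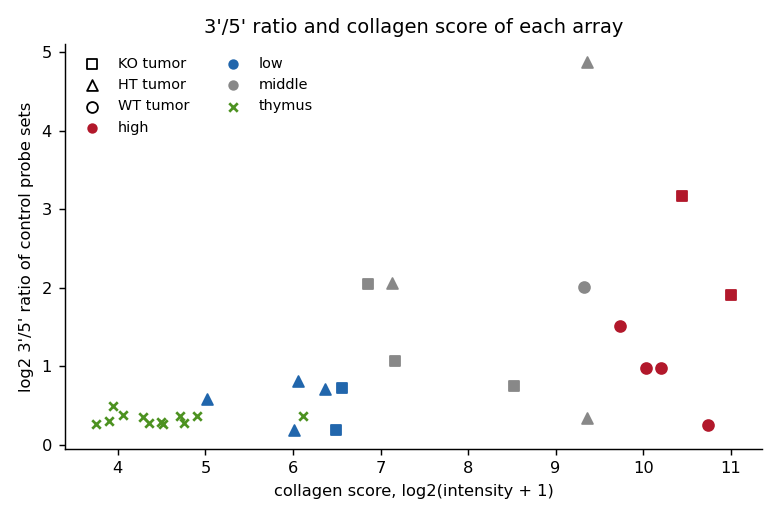
Log2 3'/5' ratio of the actin and Gapdh control probe sets against the collagen score for each array, with shapes for genotype and colours for the collagen group. All high tumors except WT tumor 03 (0.25) lay above the low tumors, whose highest ratio was 0.82.

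Cxcl13 and Tspoap1 were higher in the high-collagen tumors, and they were the only genes past the threshold of limma's adjusted p under 0.05. This is 2 of 13642 genes tested (0.0147%), both higher (0.0147%), with none lower. At an unadjusted p under 0.05, 1690 genes were higher (12.4%) and 1225 were lower (8.98%). Groups of 6 that did not overlap were seen for 100 genes in the higher direction (0.733%) and 95 in the lower (0.696%). The median difference over all genes tested was 0.04.

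Cxcl13 encodes the chemokine that draws B cells and follicular helper T cells into lymphoid follicles. Its level was 10.35 in KO tumor 03, 8.78 in WT tumor 03, 10.13 in KO tumor 07, 8.51 in WT tumor 05, 8.54 in WT tumor 01 and 9.28 in WT tumor 02. In the low group it was 4.93 in KO tumor 01, 5.4 in KO tumor 05, 4.86 in HT tumor 04, 5.35 in HT tumor 03, 4.86 in HT tumor 06 and 6.55 in HT tumor 01. No high tumor came near the low group, and the difference was 3.94 on the log2 scale (95% interval 3.07 to 4.81, limma adjusted p = 0.005207). Its second probe set differed by 2.21. The thymi lay at 3.64 to 4.33, below every low tumor. The middle tumors spanned the levels of both groups, and at nearly equal scores of 9.36 and 9.33 HT tumor 07 had 10.45 and WT tumor 04 had 4.02.

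Tspoap1 encodes a protein that binds the mitochondrial translocator protein and, in neurons, proteins of the synaptic active zone. It was 12.21 in KO tumor 03, 10.45 in WT tumor 03, 11.23 in KO tumor 07, 13.05 in WT tumor 05, 10.47 in WT tumor 01 and 11.04 in WT tumor 02. The low tumors had 6.96 to 8.75, so the groups did not overlap. The difference was 3.73 (95% interval 2.71 to 4.75, limma adjusted p = 0.02552). In the middle group it was 8.90 to 12.99, and in the thymi 5.39 to 7.46. With the 3'/5' ratio in the model the difference was 3.37 for Cxcl13 and 3.53 for Tspoap1, and neither passed (adjusted p = 0.0588 and 0.370). Leaving out each array in turn gave limma adjusted p of 0.00199 to 0.0275 for Cxcl13 and 0.0128 to 0.114 for Tspoap1, which did not pass without HT tumor 01, HT tumor 04, HT tumor 06, KO tumor 01, KO tumor 03, KO tumor 05 or KO tumor 07.

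**Figure D3:**
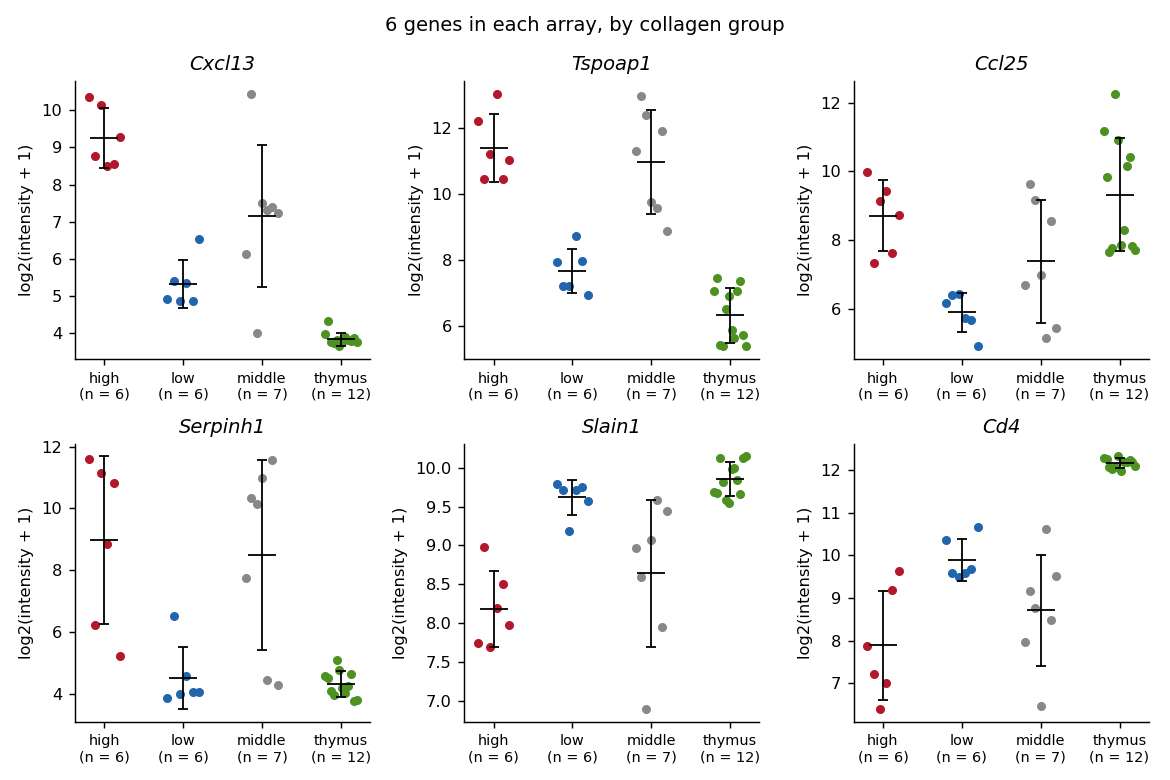
Level as log2(intensity + 1) of 6 genes in each high, low and middle tumor and each thymus, with mean ± SD as bars. Cxcl13, Tspoap1 and Ccl25 were higher in every high tumor than in every low tumor and Slain1 lower, whereas Serpinh1 and Cd4 overlapped in 1 or more tumors.

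The fibril-forming collagens had the largest share of members at unadjusted p under 0.05 among the 35 lists, though none of them passed the threshold. Of 9 listed besides the ranking genes, 7 were above the filter on low levels, and 6 of these were higher at unadjusted p under 0.05 (85.7%). Their median difference was 2.04, against 0.04 for all genes. For each list below, the share of members at that level is to be read against 12.4% of all genes in the higher direction and 8.98% in the lower, and groups that do not overlap against 0.733%. Col1a1, the alpha 1 chain that pairs with Col1a2 in type I collagen, was 7.74 in KO tumor 03, 8.17 in WT tumor 03, 5.4 in KO tumor 07, 6.24 in WT tumor 05, 4.92 in WT tumor 01 and 6.51 in WT tumor 02, and 3.85 to 4.34 in the low group. The groups did not overlap, with a difference of 2.40 (95% interval 1.33 to 3.47, limma adjusted p = 0.112). The tumors of highest Col1a2, KO tumor 07 and WT tumor 01, had the lowest Col1a1 of the high group. Col5a2, a chain of type V collagen that helps to set fibre width, was 7.56 to 8.04 in KO tumor 03, WT tumor 03 and WT tumor 05, 5.76 in WT tumor 02, and 4.09 and 4.31 in KO tumor 07 and WT tumor 01, next to 3.46 to 4.15 in the low group. Its difference was 2.33 (limma adjusted p = 0.114). Col11a2, a chain of cartilage type XI collagen, differed by 2.04 (adjusted p = 0.120), and Col5a3 by 0.67 (adjusted p = 0.146) near the lower end of the scale. Col5a3 passed the filter only through the high tumors, as its mean outside that group lay below the filter level of 3.65. The share of 85.7% counts Col5a3 and is thus partly set by the filter.

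Matrix glycoproteins and proteoglycans included several genes of large difference. Of 33 listed, 25 were above the filter and 7 were higher at unadjusted p under 0.05 (28%), none lower, with a median difference of 0.78. Dcn, which encodes decorin, a proteoglycan that binds collagen fibres, was 9.59 in KO tumor 03, 9.38 in WT tumor 03, 7.30 in KO tumor 07, 9.25 in WT tumor 05, 6.50 in WT tumor 01 and 9.35 in WT tumor 02, and 4.35 to 6.50 in the low group. WT tumor 01 lay level with the highest low tumor, and the difference was 3.08 (95% interval 1.83 to 4.33, limma adjusted p = 0.112). Sparc, which encodes osteonectin, a collagen-binding glycoprotein, was 9.09, 9.32 and 8.38 in KO tumor 03, WT tumor 03 and WT tumor 05, 6.91 in WT tumor 02, and 5.24 and 4.83 in KO tumor 07 and WT tumor 01, next to 3.65 to 5.0 in the low group. The difference was 3.08 (adjusted p = 0.112). Bgn, the proteoglycan biglycan, had 8.08 in WT tumor 03 and 4.57 in WT tumor 01, above 3.98 to 4.38 in the low group (difference 2.17, adjusted p = 0.112). Ecm1, a secreted matrix protein, was lowest in WT tumor 03 at 6.90 and 9.15 to 10.72 in the other high tumors, with 5.32 to 7.91 in the low group (difference 2.84, adjusted p = 0.112). Mgp, matrix Gla protein, and Fstl1, follistatin-like 1, were chosen after their values were seen: both had groups that did not overlap, with differences of 3.35 and 1.97 (adjusted p = 0.112 for each).

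Other matrix collagens and basement membrane genes were spread unevenly over the high tumors. Of 16 other collagens listed, 8 were above the filter and 2 were higher at unadjusted p under 0.05 (25%), with a median difference of 0.73. Col7a1, the anchoring-fibril collagen, was 8.56 in KO tumor 03, 7.27 in WT tumor 05, 6.57 in WT tumor 02 and 4.66 to 5.49 in the other high tumors, above 3.89 to 4.55 in the low group (difference 1.91, adjusted p = 0.117). Col6a1, a microfibril collagen, was 7.45 in KO tumor 03 and 7.48 in WT tumor 03 and 3.73 to 5.50 in the rest of the high group, with 3.46 to 4.03 in the low group (difference 1.82, adjusted p = 0.140). Of 22 basement membrane genes listed, 16 were above the filter, 5 were higher (31.2%) and none lower at unadjusted p under 0.05, with a median difference of 0.58. Col4a1, the main basement membrane collagen, was 9.42, 9.18 and 8.89 in KO tumor 03, WT tumor 03 and WT tumor 05, and 5.42, 4.46 and 5.33 in KO tumor 07, WT tumor 01 and WT tumor 02, next to 4.14 to 5.25 in the low group. Its difference was 2.51 (adjusted p = 0.142). Agrn, which encodes the heparan sulfate proteoglycan agrin, differed by 1.79 (adjusted p = 0.178) with overlap, and by 0.84 with the mean of its probe sets.

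**Figure D4:**
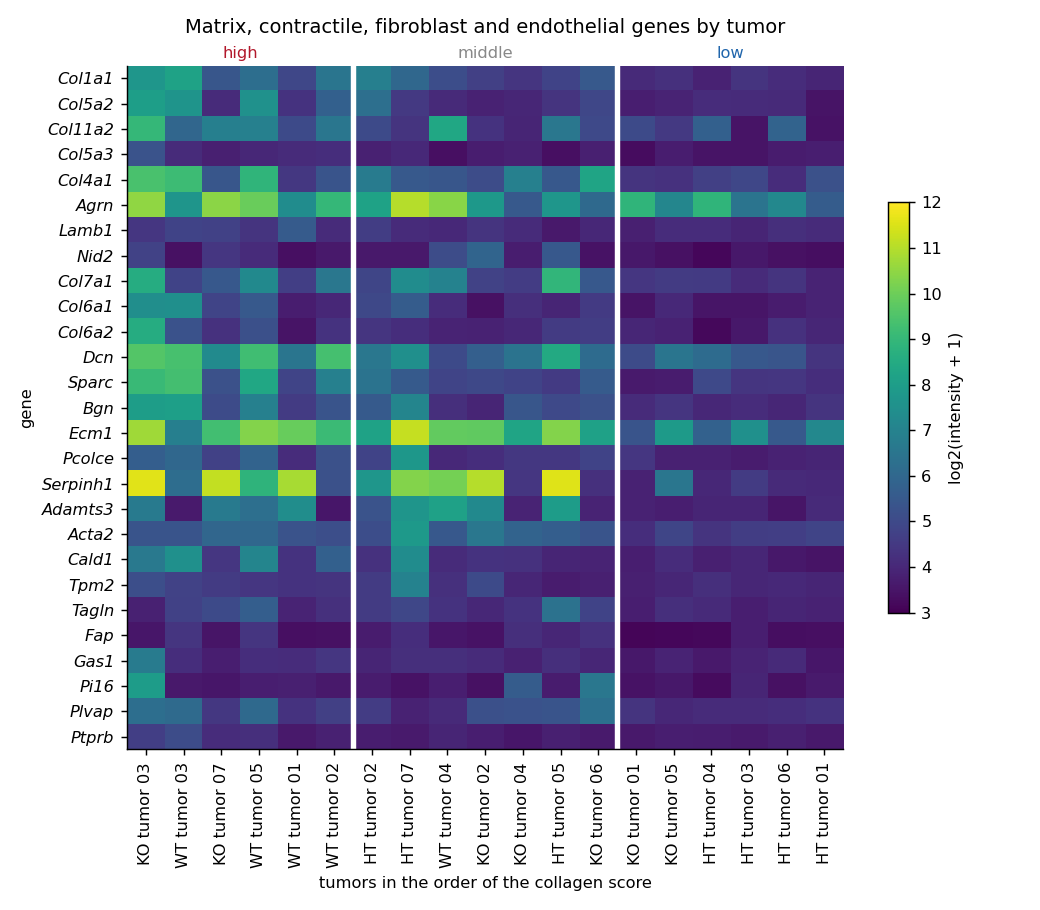
Level as log2(intensity + 1) of 27 genes in each tumor, ordered left to right by the collagen score. Sparc, Bgn, Col4a1 and Col5a2 were bright in KO tumor 03, WT tumor 03 and WT tumor 05 and dark in KO tumor 07 and WT tumor 01, where Serpinh1 and Adamts3 were bright.

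Among genes that make and trim collagen, Serpinh1 and Adamts3 had another order over the high tumors. Of 32 listed, 21 were above the filter, 4 were higher (19%) and 1 lower at unadjusted p under 0.05, with a median difference of 0.31. Serpinh1, which encodes the collagen chaperone HSP47, was 11.60 in KO tumor 03, 6.22 in WT tumor 03, 11.16 in KO tumor 07, 8.85 in WT tumor 05, 10.81 in WT tumor 01 and 5.22 in WT tumor 02. The low tumors had 3.86 to 4.56 apart from KO tumor 05 at 6.52, so the groups overlapped through that tumor. The difference was 4.46 (95% interval 2.12 to 6.81, limma adjusted p = 0.112), and its second probe set differed by 3.63. Adamts3, a procollagen N-propeptidase, was 6.30 to 7.40 in KO tumor 03, KO tumor 07, WT tumor 05 and WT tumor 01, but 3.65 in WT tumor 03 and 3.56 in WT tumor 02, next to 3.52 to 4.07 in the low group. Its difference was 1.87 (adjusted p = 0.137), and 0.97 with the mean of its probe sets. In the middle tumors high values of both genes also occurred where Col1a2 was low, as HT tumor 05 had 11.56 for Serpinh1 and 7.99 for Adamts3 with Col1a2 at 5.69. Pcolce, which speeds the removal of the C-propeptide, differed by 1.35 (adjusted p = 0.112). Sec23a, part of the coat that carries procollagen out of the endoplasmic reticulum, was lower by value, with a difference of -1.04 (adjusted p = 0.166).

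Enzymes and receptors of the matrix showed smaller numbers. Of 21 matrix proteases and inhibitors listed, 15 were above the filter and 2 were higher at unadjusted p under 0.05 (13.3%, near the share of all genes), with a median difference of 0.37. Mmp11, stromelysin 3, was 8.25 in KO tumor 07 and 7.32 in KO tumor 03 but 3.80 in WT tumor 02, next to 3.65 to 4.37 in the low group (difference 1.86, adjusted p = 0.155). Mmp2, gelatinase A, differed by 0.95 (adjusted p = 0.168). Of 11 collagen receptors listed, 8 were above the filter, 2 were higher (25%) and 1 lower, with a median difference of 0.06. Itga10, a collagen-binding integrin chain, differed by 1.23 (adjusted p = 0.123), and Itgb1, the beta chain that pairs with it, by -1.63 (adjusted p = 0.129). Itgb1 was 7.2 in WT tumor 02 and 9.03 to 11.06 in the other high tumors, with 10.45 to 11.95 in the low group.

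The label of stromal tumors was checked against markers of the cells that usually make collagen. None of the 12 fibroblast markers above the filter, of 20 listed, reached an unadjusted p under 0.05. Of these 12, 9 had a positive difference, and the median was 0.23. The marker set fixed for fibroblasts and collagen-producing stroma also held Col1a1, Col5a1, Col5a2, Dcn, Sparc and Lum. The differences of Col1a1, Col5a2, Dcn, Sparc and Lum, given in other paragraphs, were positive, and none passed the threshold. The value of Col5a1 is not given here. Lum passed the filter only through the high tumors, since its mean outside that group lay below 3.65. Pdgfra, a defining fibroblast receptor, was 3.67 to 4.47 in the high group and 3.80 to 3.94 in the low group, close to the filter level of 3.65, and the sign of its difference changed with the ranking used. Fap, fibroblast activation protein, was 4.39 and 4.38 in WT tumor 03 and WT tumor 05 and 3.36 to 3.55 in the other high tumors, with 3.12 to 3.75 in the low group (difference 0.45, adjusted p = 0.274). Among the high tumors Gas1 and Pi16 stood apart in KO tumor 03 alone, at 6.73 and 7.97. The mean of the 12 fibroblast markers was 3.70 to 4.80 in the high tumors and 3.62 to 3.91 in the low tumors. Since matrix genes of the fixed set were higher by value while the fibroblast list differed little, the groups are called high-collagen and low-collagen here. The word stromal is left out.

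Contractile and vessel genes held some members at low unadjusted p. Of 20 pericyte and smooth muscle genes listed, 15 were above the filter, 3 were higher at unadjusted p under 0.05 (20%) and none lower, and 3 had groups that did not overlap, with a median difference of 0.40. Acta2, smooth muscle actin, was 5.17 to 6.01 in the high group and 4.17 to 4.87 in the low group, a narrow gap in which every high tumor lay above every low tumor (difference 0.93, 95% interval 0.49 to 1.37, limma adjusted p = 0.112). With the mean of its probe sets Acta2 differed by 0.36. Cald1, the actin-binding caldesmon, was 7.52, 7.08 and 6.63 in WT tumor 03, WT tumor 05 and KO tumor 03, and 4.33 and 4.41 in WT tumor 01 and KO tumor 07, above 3.47 to 4.15 in the low group (difference 2.17, adjusted p = 0.112). Tpm2, a tropomyosin, differed by 0.61 (adjusted p = 0.112). The pericyte marker Rgs5, from the fixed marker list, ranged from 3.58 to 9.63 in the high group and 3.71 to 4.23 in the low group. Of 22 endothelial genes listed, 12 were above the filter, with 2 higher (16.7%) and 2 lower at unadjusted p under 0.05. Plvap, a protein of endothelial diaphragms, was 6.24, 6.10 and 6.07 in KO tumor 03, WT tumor 03 and WT tumor 05 and 4.34 to 4.72 in the other high tumors, with 3.99 to 4.36 in the low group (difference 1.14, adjusted p = 0.120). Pecam1, which T cells carry as well as endothelium, differed by -1.02 (adjusted p = 0.186).

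Signals that act on fibroblasts differed between the lists in their medians. Of 23 TGF-beta pathway genes listed, 21 were above the filter, 5 were higher (23.8%) and 3 lower at unadjusted p under 0.05, with a median difference of -0.09. Ccn2, connective tissue growth factor, was 7.23 in KO tumor 03, 5.30 in WT tumor 03 and 3.49 to 4.82 in the other high tumors, above 2.97 to 3.46 in the low group (difference 1.43, adjusted p = 0.170). Outside the high group the mean of Ccn2 lay below the filter level of 3.65, so it entered the test only through the high tumors. Smad2, which carries the TGF-beta signal to the nucleus, was 8.35 to 9.63 in the high group and 9.47 to 9.87 in the low group (difference -0.77, adjusted p = 0.112). Of 20 PDGF, FGF and IGF genes listed, 16 were above the filter, 13 had a positive difference, 3 were higher at unadjusted p under 0.05 (18.8%) and none lower, with a median difference of 0.45. Igfbp7, an IGF-binding protein of vessels, differed by 2.41 (adjusted p = 0.160), and the receptor Fgfr1 by 1.15 (adjusted p = 0.190).

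NDR1 belongs to the kinases regulated by MOB proteins, near the Hippo pathway that restrains YAP. Of 22 genes of this list, 18 were above the filter, 3 were higher (16.7%) and 4 lower at unadjusted p under 0.05, with a median difference of -0.08. Stk38, which encodes NDR1, averaged 12.10 ± 0.76 (SD, n = 6) in the high group and 10.82 ± 1.25 (n = 6) in the low group, with overlap (difference 1.28, adjusted p = 0.210), and the 2 KO tumors of each group had 12.84 and 11.47 in the high group and 9.22 and 9.52 in the low group. Its 2 other probe sets differed by -0.23 and 0.40. Stk38l, which encodes NDR2, differed by -1.02 (adjusted p = 0.169). Tead1, a DNA-binding partner of YAP, was 9.47 in KO tumor 03, 6.32 in WT tumor 03, 10.36 in KO tumor 07, 10.90 in WT tumor 05, 9.20 in WT tumor 01 and 3.86 in WT tumor 02. The low tumors had 3.50 to 4.36, so WT tumor 02 alone lay among them, and the difference of 4.56 was the largest of all genes tested (95% interval 2.34 to 6.79, limma adjusted p = 0.112). Another Tead1 probe set differed by 0.43. Mob1a, which activates NDR and LATS kinases, differed by -1.22 (adjusted p = 0.112) and Lats2 by -1.46 (adjusted p = 0.126).

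Several complement genes and 1 more chemokine were higher by value. Of 13 complement genes listed, 9 were above the filter and 6 were higher at unadjusted p under 0.05 (66.7%), none lower, with a median difference of 0.99. Serping1, the C1 inhibitor, was 8.65, 7.87 and 7.31 in WT tumor 03, WT tumor 05 and KO tumor 03 and 3.64 to 4.54 in the other high tumors, with 3.37 to 3.96 in the low group (difference 2.47, adjusted p = 0.126). Clu, clusterin, was 10.10 in KO tumor 03 and 5.82 in WT tumor 01, with 5.32 to 7.32 in the low group (difference 2.03, adjusted p = 0.123). C1s1 differed by 0.99 (adjusted p = 0.114). Serping1 and C1s1 passed the filter only through the high tumors, as the mean of each outside that group lay below 3.65. The share of 66.7% is thus partly set by the filter. Of 23 chemokines listed, 16 were above the filter, 2 were higher at unadjusted p under 0.05 (12.5%, near the share of all genes), and Cxcl13 was the 1 that passed. Ccl25, which thymic epithelium makes to attract T cell precursors, was 9.99 in KO tumor 03, 7.34 in WT tumor 03, 9.15 in KO tumor 07, 9.43 in WT tumor 05, 7.63 in WT tumor 01 and 8.72 in WT tumor 02. It was 4.90 to 6.43 in the low group, without overlap (difference 2.82, 95% interval 1.83 to 3.81, limma adjusted p = 0.112). The thymi had 7.65 to 12.26, so that the low tumors lay below every thymus.

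The thymic epithelial list was mixed. Of 16 listed, 14 were above the filter and 2 were higher, Ccl25 and Aire (14.3%, near the share of all genes), with a median difference of 0.17. A positive difference was seen for 9 of the 14. Aire, which drives display of tissue antigens in the medulla, was 9.10 in KO tumor 03 and 4.30 to 6.94 in the other high tumors, with 3.98 to 4.84 in the low group (difference 1.66, adjusted p = 0.195). Krt8, a keratin, was 6.16 in WT tumor 03 and 3.65 to 4.47 in the other high tumors, and 3.45 to 4.08 in the low group. Epcam, a fixed marker of this epithelium, went the other way, at 4.25 to 8.88 in the high group and 6.68 to 11.68 in the low group. Its difference of -2.02 was the lowest of the list. Fabp4, a fatty acid carrier of fat cells, macrophages and endothelium, was 12.23 in WT tumor 03 and 5.56 in WT tumor 01, with 5.06 to 9.38 in the low group (difference 2.99, adjusted p = 0.177).

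Genes of NK cells, B cells, neutrophils and the interferon response had negative median differences, and both Nkg7 and the B cell list were highest in HT tumor 01 and HT tumor 03 of the low group. Of 9 NK and cytotoxic genes above the filter, 2 were lower at unadjusted p under 0.05, with a median difference of -1.71. Nkg7, a protein of cytotoxic granules, was 3.67 to 6.11 in the high group, with 12.42 in HT tumor 01, 11.97 in HT tumor 03 and 3.86 to 7.77 in the other low tumors (difference -3.19, adjusted p = 0.224). B cell and plasma cell genes, 13 above the filter, had a median difference of -0.67, and neutrophil genes, 6 above the filter, one of -1.30. HT tumor 01 and HT tumor 03 had mean B cell list levels of 12.89 and 11.72, while the other 10 tumors of both groups lay at 5.38 to 10.18. Without the tumors of highest B cell level, the medians were 1.31 for the B cell list, 0.25 for neutrophil genes and -0.05 for NK and cytotoxic genes. Interferon response genes, 13 above the filter, had a median of -0.76, and 0.20 without those tumors. Macrophage genes, 17 above the filter, had a median of 0.24, with C1qb, a chain of complement C1q, at 9.63 to 11.86 in the high group and at values on both sides of that range in the low group, from 8.58 in HT tumor 06 upward.

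T cell genes were high in both groups. The mean over 13 T lineage genes was 11.66 to 12.33 in the high tumors and 11.83 to 12.10 in the low tumors. Cd3d, a chain of the T cell receptor complex, was 12.27 to 14.06 in the high group and 13.56 to 14.14 in the low group (difference -0.71, adjusted p = 0.161). Cd4, a coreceptor, was 7.89 in KO tumor 03, 7.22 in WT tumor 03, 6.40 in KO tumor 07, 7.01 in WT tumor 05, 9.20 in WT tumor 01 and 9.64 in WT tumor 02, and 9.50 to 10.66 in the low group. WT tumor 02 lay within the low range, and the difference was -2.0 (95% interval -3.13 to -0.87, limma adjusted p = 0.112). Slain1, which encodes a microtubule end protein, Terf2ip, which encodes the telomere protein RAP1, and Saysd1 had the smallest p in the lower direction, with groups that did not overlap and differences of -1.44, -1.28 and -1.93 (adjusted p = 0.112 for each). Slain1 was 7.69 to 8.97 in the high group and 9.18 to 9.79 in the low group, where it was close to the thymi at 9.55 to 10.15.

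Genes of cell division had a direction that depended on the tumors compared. Of 20 mitosis genes listed, 19 were above the filter and 4 were higher (21.1%), none lower, at unadjusted p under 0.05, with a median difference of 0.51. Of 20 DNA replication genes, 19 were above the filter and 6 were higher (31.6%), with a median of 0.48. Within the KO tumors the medians were -0.95 for mitosis and -0.17 for replication. In the fit that holds the 3'/5' ratio they were 1.24 and 0.69. There 14 of 19 mitosis and 4 of 19 replication genes were higher at unadjusted p under 0.05, against 4.64% of all genes. Pole, the catalytic subunit of DNA polymerase epsilon, was 10.54 to 11.07 in the high group and 8.32 to 10.52 in the low group, without overlap (difference 1.31, adjusted p = 0.117). Cenpe, a kinetochore motor, was 10.90 to 11.59 in the high group and 8.62 to 10.94 in the low group (difference 1.41, adjusted p = 0.117). Without the tumors of highest B cell level, 2 of which were low-collagen, the medians were 0.11 for mitosis and 0.04 for replication. Of 17 glycolysis and hypoxia genes above the filter, 3 were higher (17.6%) and 1 lower: Egln3, an oxygen-sensing hydroxylase, differed by 1.51 (adjusted p = 0.209) and Bnip3, a mitophagy receptor, by -1.54 (adjusted p = 0.149).

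The number of genes past the threshold rested on WT tumor 03. Without this array 1212 genes passed, 737 higher (5.4%) and 475 lower (3.48%), in place of 2, whereas leaving out any other array gave 1 to 4. Since both fits share every array except WT tumor 03, the same direction of all 1212 genes in the 12 tumors is no separate support. They included, as higher, Col1a1, Dcn, Sparc, Ecm1, Pcolce, Serpinh1, Adamts3, Col7a1, Acta2, Cald1, Itga10, Tead1 and Ccl25, with differences of 0.97 for Acta2 to 5.02 for Serpinh1, and, as lower, Itgb1, Pecam1, Smad2, Mob1a, Stk38l, Cd3d, Sec23a and Bnip3. WT tumor 03 was the high tumor whose 3'/5' ratio lay within the low range, and without it the ratio did not overlap between the groups, at 0.97 or more in the high group and 0.82 or less in the low group. With the ratio as a covariate in limma no gene passed, either in all 12 tumors or without WT tumor 03. In the 12 tumors 633 genes were then higher (4.64%) and 392 lower at unadjusted p under 0.05, and without WT tumor 03 these were 851 and 500. In the 12 tumors with the covariate the difference was 2.83 for Col1a1, 3.48 for Dcn, 3.81 for Sparc and 2.86 for Cald1, all larger than without the covariate, and 3.37 for Serpinh1, -1.06 for Itgb1 and -0.49 for both Stk38l and Pecam1, all nearer to 0. The part of RNA quality in the result was not tested beyond these values.

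**Figure D5:**
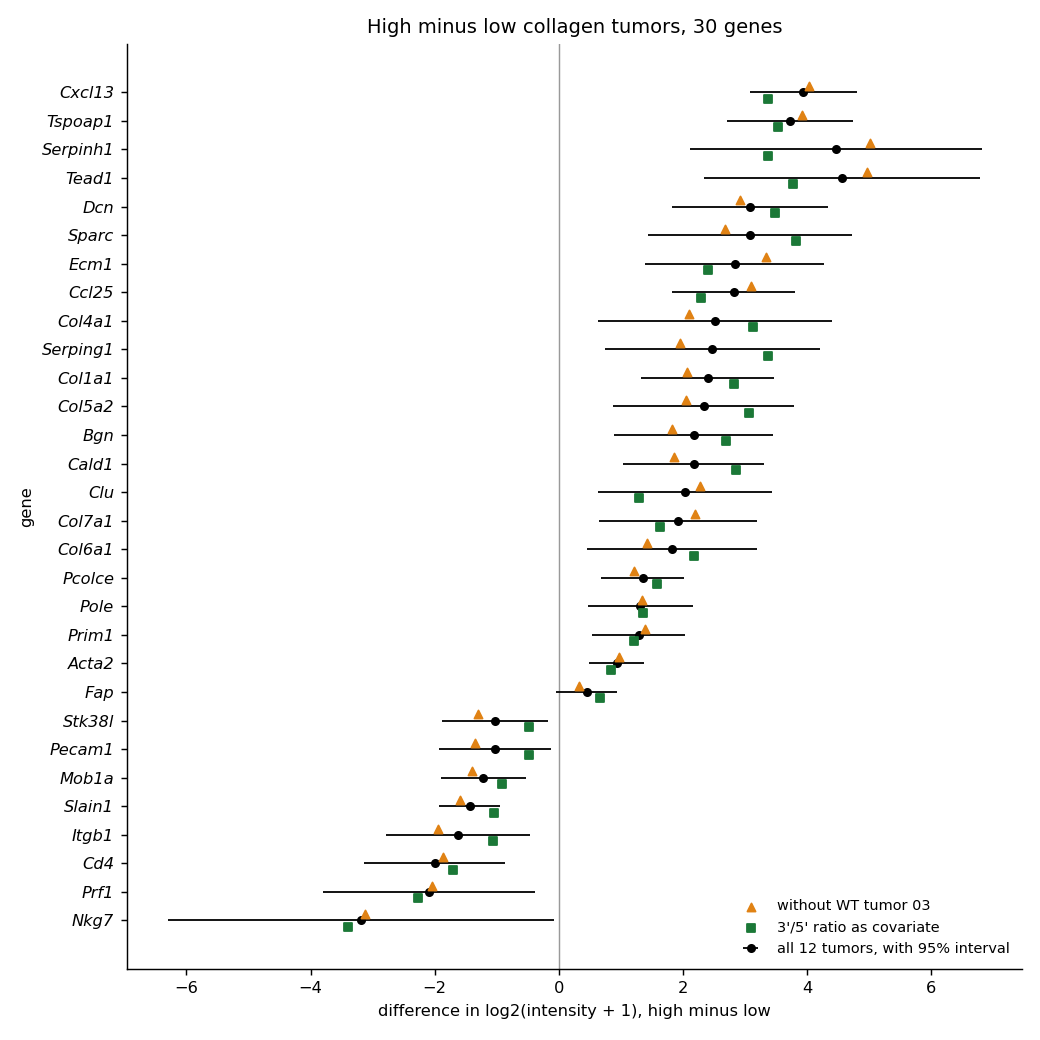
Difference in log2(intensity + 1), high minus low, for 30 genes in all 12 tumors (circles, with 95% interval), without WT tumor 03 (triangles) and with the 3'/5' ratio in the model (squares). The signs were the same in the 3 fits for these genes, and Col1a1, Dcn, Sparc and Cald1 moved away from 0 with the covariate while Serpinh1, Itgb1, Stk38l and Pecam1 moved towards it.

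Among the tumors labelled KO, 2 high tumors (KO tumor 03 and KO tumor 07) can be set against 2 low tumors (KO tumor 01 and KO tumor 05) of the same label. Stk38 itself differed between them, at 12.84 and 11.47 in the high tumors, within the range of WT tumors, and 9.22 and 9.52 in the low tumors, so the shared label does not mean a shared Stk38 level. In the fit with genotype as a covariate, whose estimate comes from these 4 tumors, 126 of 13642 genes passed, 35 higher and 91 lower. Of these, 51 also passed without WT tumor 03, where 5.4% of all genes were higher and 3.48% lower. Both fits hold these 4 tumors, so the overlap is no separate support. In the fit with genotype, Cxcl13 differed by 5.08 (limma adjusted p = 0.01357), Tspoap1 by 4.13 (adjusted p = 0.054) and Ccl25 by 3.27 (adjusted p = 0.054). Serpinh1 differed by 6.19 and Tead1 by 6.30 (adjusted p = 0.063 and 0.075), and Mmp11 passed with 3.84 (adjusted p = 0.047). The matrix genes had differences near those in all 12 tumors, at 2.41 for Col1a1, 2.67 for Dcn and 3.51 for Sparc, and did not pass (adjusted p = 0.15, 0.16 and 0.16). The 3'/5' ratios of these tumors were 1.91 and 3.17 in the high group and 0.73 and 0.18 in the low group.

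The arrays that the groups did not use gave a separate view of the score. In the 12 thymi, with genotype and sex as covariates, 0 of 13642 genes followed the score at limma's adjusted p under 0.05 (0.0%), and 378 had a positive slope at unadjusted p under 0.05 (2.77%). Without the covariates 196 genes passed. The score was 4.49 to 6.12 in the female thymi and 3.75 to 4.35 in the male thymi, so that fit cannot tell score and sex apart. The positive slopes rested in large part on HT thymus F_01, the thymus of highest score, without which 198 genes had a positive and 416 a negative slope at that level. Dcn had a slope of 1.47 log2 units per unit of score (adjusted p = 0.43), Igfbp7 0.60, Fabp4 0.75, Cald1 0.61, Sparc 0.53, Col4a1 0.76 and Bgn 0.42 (adjusted p of 0.43 to 0.82). Without HT thymus F_01 the slope was 0.25 for Dcn, 0.38 for Cald1, 0.15 for Sparc, 0.12 for Col4a1 and 0.12 for Bgn, and 0.61 for Igfbp7 and 1.34 for Fabp4. Col1a1 had a slope of 0.08, Serpinh1 0.20, Tead1 0.48, Cxcl13 0.07 and Tspoap1 -0.32. By count, 10 of 25 glycoprotein and proteoglycan genes and 8 of 14 thymic epithelial genes had a positive slope at unadjusted p under 0.05, and 0 and 1 did without that thymus. Col1a2 lay at 3.34 to 4.31 in the thymi, and the score there followed Col3a1, at 4.15 to 7.92. Of the genes higher in high-collagen tumors at unadjusted p under 0.05, 1.78% had a positive thymus slope at that level, and of the genes with a positive thymus slope 7.94% were higher in the tumors.

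In the 7 middle tumors, 2 of 13642 genes followed the score (0.0147%), Ephb6, a kinase-dead ephrin receptor of T cells, with a slope of 2.17 (limma adjusted p = 0.0386) and Adamts20, a secreted metalloprotease, with 3.56 (adjusted p = 0.0298), and none passed with no filter on low levels. Positive slopes at unadjusted p under 0.05 were seen for 850 genes (6.23%) and negative ones for 819 (6.0%). Col1a1 had a slope of 0.43, Dcn of -0.29, Sparc of 0.23, Serpinh1 of 1.30 and Cxcl13 of -0.17, each with an unadjusted p above 0.05. The steepest negative slopes among the listed genes named here were S100a9, a neutrophil calcium-binding protein, at -3.21, and the B cell factors Spib and Mzb1, both at -2.45. KO tumor 04 and KO tumor 06, near the lower end of the middle group, had 12.59 and 11.56 for S100a9 and mean B cell list levels of 12.99 and 13.05. By count, 10 of 19 mitosis genes and 7 of 19 replication genes had a positive slope at that level, and 8 of 13 B cell genes a negative one.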

How the data were processed

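The files held intensities on a linear scale, deposited by the authors after GCRMA (background correction, normalization and summary of Affymetrix probes), per the submitters' processing notes. The labels state no version of it. Every array had a median intensity of 20.0. Of 45101 probe sets, 34944 named a single gene in the platform annotation, 932 several and 9224 none. Values were turned to log2(value + 1). A gene was its probe set of highest mean over 31 arrays, and the 75.0% of 18192 genes with a mean above the 25th percentile (3.65) were kept, leaving 13642 to test without Col1a2 and Col3a1.

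Groups were compared with limma 3.58.1 in R 4.3.3 (lmFit, eBayes, Benjamini-Hochberg adjustment over all genes tested, threshold 0.05), without covariates. Slopes on the collagen score were fitted in 12 thymi with genotype and sex and in 7 middle tumors without. Single values were compared by 2-sided exact permutation tests with scipy 1.17.1. The fits were tested on simulated data.

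The tumors, the 35 gene lists and the rules were chosen with earlier results of these data known. Named were Col1a2, Col3a1, Stk38 and Stk38l, genes past the threshold (up to 10 in each direction), up to 4 members of a list (those past the threshold by size, then by unadjusted p), some of the markers fixed for cell types, and, where no gene passed in a direction, the 3 of smallest p. Other genes named were chosen after their values were seen. Of 583 distinct listed genes, 439 were above the filter. An intensity has no count behind it, so the number of arrays limits the precision.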

Additional observations from a re-analysis of the deposited data

Results flagged for a closer look

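Single arrays stood far from the rest of their group in 14 of 194 groups checked, by the gap to the next value over the group's range, where chance flags about 1 in 20. KO tumor 03 was highest among the high-collagen tumors for Pi16 at 7.97, Gas1 at 6.73, Col5a3 at 5.29 and Col6a2 at 8.56. WT tumor 03 was highest among them for Car3 at 9.13 and Krt8 at 6.16. Among the low-collagen tumors KO tumor 05 was highest for Serpinh1 at 6.52, Igfbp7 at 7.0 and C1s1 at 3.96, and KO tumor 01 for Pcolce at 4.44. HT tumor 06 was highest for Cd3d at 14.14, HT tumor 01 was highest for Cxcl13 at 6.55, and HT tumor 04 was lowest for Slain1 at 9.18 and Mmp2 at 3.28.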

How the results depend on the processing

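Cxcl13 and Tspoap1, the 2 genes that passed, also passed with pseudocount 16, no filter, quantile normalization (which moved no value by over 0.0006) and the mean of a gene's probe sets. Other choices of tumors gave other genes: Fam228b and Rasgrp4 (both higher) for the 9 highest against the 9 lowest, Cxcl13 and Kank4 (lower) without the tumors of highest B cell level, Tspoap1, Rasgrp4 and Rab6b (lower) when ranked on all probe sets of both genes, and 1 gene, Rab6b, lower, for the 4 highest against the 4 lowest. The count was 1, Cxcl13, with sex as a covariate, 126 (35 higher, 91 lower) with genotype, 0 with the 3'/5' ratio, 0 with all 19 tumors at 3 levels and 7 with all 19 against the score, Tspoap1 among them and Cxcl13 not. Leaving out arrays gave 1 to 1212, and 1212 came without WT tumor 03. Fits chosen after seeing the data gave 0 without WT tumor 03 and with the ratio, 0 when ranked on Col3a1 alone and 3 on Col1a2 alone (Tspoap1, Rasgrp4 and Rab6b). Genes at unadjusted p under 0.05, 2915 in all 12 tumors, numbered 1025 with the ratio and 1351 with the ratio and without WT tumor 03.

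Replicate numbers did not pair the tumors: over 17 same-numbered pairs the deviations correlated by -0.57 to 0.57 (mean -0.12, against 0.02 for other pairs). With the replicate block 0 genes passed and 740 had an unadjusted p under 0.05. For the score, the block gave -3.22 for HT against WT tumors (exact p = 0.0625, the smallest that 5 pairs allow; adjusted p = 0.125). Leaving out 1 tumor gave -3.35 to -2.63 between HT and WT tumors and -2.34 to -1.59 between KO and WT tumors, where only the fit without KO tumor 03 passed.

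The thymus fit gave 0 genes, 196 without covariates (2369 at unadjusted p under 0.05, against 731) and 0 to 1 with a thymus left out, the 1 without HT thymus M_02. The fit without covariates cannot tell score and sex apart. Positive slopes at unadjusted p under 0.05 numbered 378, and 198 without HT thymus F_01. The middle tumors gave 2, and 0 with no filter.

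Of 94 genes set against the alternatives, 87 had 1 sign in all 29. The exceptions were C1qb at -0.194 with the replicate block, Il2ra at 0.248 ranked on Col3a1 alone, Kit at -2.24, Lig1 at -0.083, Mzb1 at 0.557 and Ngp at 0.337 with genotype, and Mzb1 at 0.599 and Ngp at 0.255 without the tumors of highest B cell level, and Pdgfra at -0.005 for the 4 highest against the 4 lowest, -0.044 for 9 against 9, -0.086 with genotype, -0.014 with all 19 against the score, -0.155 ranked on Col1a2 alone, -0.234 ranked on all probe sets and -0.063 to 0.098 with 1 array left out (below 0 without WT tumor 05). The cause was not tested in these cases.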

Other observations

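Matrix, Notch and early thymocyte genes outside the named lists' leading members gave further values, and those of Lum and Postn were chosen after they were seen. Lum, the collagen-binding proteoglycan lumican, ran from 3.44 to 7.2 over the high-collagen tumors and from 2.98 to 3.65 over the low-collagen tumors (difference 1.41, limma adjusted p = 0.222). Lum passed the filter on low levels only through the high-collagen tumors. Postn, the matrix protein periostin, ran from 4.37 to 8.60 in the high group and from 3.92 to 4.74 in the low group (difference 2.32, adjusted p = 0.133). Jag2, a Notch ligand, differed by 1.29 (adjusted p = 0.159), Kit, a receptor of early thymocytes, by 1.87 (adjusted p = 0.308), and Il2ra, the alpha chain of the interleukin-2 receptor, by -2.71 (adjusted p = 0.247). The last pair overlapped widely between the groups.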
